A study of Mus musculus with 16 samples.

Results

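The genes described here act on plasminogen and on blood clotting at the surface of endothelium, and they were read in lymphatic endothelial cells (LECs) of mouse lymph nodes (LNs). They were chosen by name, and all 9 (*Plaur*, *Plau*, *Plat*, *Serpine2*, *Anxa2*, *S100a10*, *Thbd*, *F3* and *Tfpi*) were found among the 24946 gene names of the deposited tables. Popliteal and brachial LNs were digested, the LECs were sorted for podoplanin and CD31 and against the leukocyte marker CD45, and 16 libraries were made from their RNA, with 4 per group in 4 groups. A WT and a KO group came from mice at steady state, and the groups here called WT inflamed and KO inflamed from mice that had received ovalbumin (OVA) in Freund's adjuvant in the footpads 1 day before. KO mice lack Clever-1, a scavenger receptor encoded by *Stab1*, in every cell of the body and not in LECs alone. By the labels the strain was C57BL/6 and the adjuvant the complete form, whereas by the methods of the study the background was mixed (C57BL/6N with 129SvJ) and the adjuvant the incomplete form. On GRCm38, the assembly of mm10, *Plaur* lies at chr7:24460937-24475970, *Plau* at chr14:20836662-20843388, *Plat* at chr8:22757722-22782848, *Serpine2* at chr1:79794317-79858665, *Anxa2* at chr9:69453683-69491792, *S100a10* at chr3:93555117-93564645, *Thbd* at chr2:148404471-148408188, *F3* at chr3:121723537-121735052 and *Tfpi* at chr2:84432855-84476775. The mice were of both sexes and between 6 and 12 weeks old, and each library held cells of 2 mice.

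Plasminogen is a circulating precursor that becomes the protease plasmin when a plasminogen activator cuts it. The activators are urokinase, encoded by *Plau*, which works while held by its receptor uPAR, encoded by *Plaur*, and the tissue-type activator, encoded by *Plat*, which endothelium is known to release. Annexin A2 and S100A10, encoded by *Anxa2* and *S100a10*, form a surface complex that binds plasminogen together with the tissue-type activator, and protease nexin-1, encoded by *Serpine2*, inhibits both activators and thrombin. Clotting starts when tissue factor, encoded by *F3*, meets factor VII, and resting endothelium holds it down with tissue factor pathway inhibitor, encoded by *Tfpi*, and with thrombomodulin, encoded by *Thbd*, which turns thrombin into an activator of protein C. Lymph carries fibrinogen and clotting factors but clots slowly, and plasmin also cuts matrix and growth factors in tissue.

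Levels are given as TPM, in which reads are divided by transcript length and scaled to the same total in each library, so that levels of different genes can be set side by side. TPM keep no sequencing depth, which is unknown here, and the precision therefore rests on the spread of 4 libraries per group. Differences were tested with limma on log2(TPM + 1), a scale on which the changes of low genes look smaller than they are. Only genes that reached 1 TPM in 4 or more libraries of a comparison were tested, and p-values were adjusted over all of them. To pass, a gene needed an adjusted p no higher than 0.05 together with a log2 fold change of 1 or more in either direction. Of the 9 members, 8 were above the low-value limit in every comparison and *F3* was below it in all of them. In bulk RNA of sorted cells, fewer cells of a type and less RNA per cell cannot be told apart.

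*Stab1* lay between 235 and 248 TPM in WT LECs and between 5.09 and 6.66 TPM in KO LECs, and between 193 and 640 TPM against 5.85 to 8.90 TPM after OVA. WT inflamed replicate 2 stood apart from the other libraries, with 10903 genes at 1 TPM or more against 11898 to 12133 elsewhere and a median ratio of 0.590 to the geometric mean of all libraries against 0.90 to 1.2. Results that rest on this library are given with and without it. Of 7 markers of lymphatic endothelium, *Ccl21a* was listed at 0 in all 16 libraries, and the summed level of the list was 2468 to 3187 TPM in WT, 2485 to 2849 TPM in KO, 2219 to 5779 TPM in WT inflamed and 5616 to 6629 TPM in KO inflamed LECs. The 2219 TPM was that of WT inflamed replicate 2, whereas WT inflamed replicates 1, 3 and 4 had 4916, 5779 and 5507 TPM. Markers of other cells also moved. The 10 markers of macrophages and monocytes summed to between 392 and 1134 TPM in WT and between 402 and 533 TPM in KO LECs, but to between 112 and 147 TPM and between 119 and 179 TPM after OVA, with no marker at 0 throughout a group. The 11 markers of blood and high endothelium summed to between 3765 and 4391 TPM in WT and between 6477 and 7629 TPM in KO LECs, and to between 3098 and 4856 TPM and between 3553 and 5487 TPM after OVA. Within that list *Glycam1* had means of 2080 TPM in WT and 4439 TPM in KO LECs, and *Madcam1* 381 and 842 TPM. *Plvap* stood at 1513 and 1503 TPM. Of 10 of these markers tested in KO against WT, 3 passed, all higher (*Glycam1*, *Madcam1* and *Fut7*). The 10 markers of stroma and pericytes summed to between 439 and 581 TPM in WT, 295 and 467 TPM in KO, 321 and 898 TPM in WT inflamed and 445 and 807 TPM in KO inflamed LECs. The 10 neutrophil markers reached at most 29.7 TPM in sum in WT, 76.4 TPM in KO, 28.6 TPM in WT inflamed and 21.4 TPM in KO inflamed LECs, with *Ngp* and *Camp* at 0 in the WT, WT inflamed and KO inflamed libraries. The 9 markers of T and B cells summed to between 79.8 and 104 TPM in WT, 128 and 150 TPM in KO, 42.2 and 69.4 TPM in WT inflamed and 56.6 and 75.0 TPM in KO inflamed LECs. The 8 platelet markers summed to between 135 and 174 TPM at steady state and to at most 33.5 TPM after OVA. Most of that sum was *Pf4*, at means of 154 TPM in WT, 145 TPM in KO, 21.2 TPM in WT inflamed and 19.8 TPM in KO inflamed LECs. *Gp1ba*, the next of the list, had group means of 2.82 to 6.23 TPM. The 5 epithelial markers summed to at most 34.5 TPM. The part of these cells in the levels below was not tested.

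In WT LECs at steady state transcripts of the annexin complex were by far the most abundant of these genes, and those of tissue factor the least. *Anxa2* stood at 658 ± 140 TPM (SD, n = 4) and *S100a10* at 563 ± 77.8 TPM, and their ranges overlapped. *Tfpi* at 182 ± 36.0 TPM, *Thbd* at 153 ± 34.3 TPM and *Plat* at 94.0 ± 17 TPM followed, each overlapping its neighbour in the order. *Plaur* at 40.3 ± 3.26 TPM and *Serpine2* at 27.7 ± 5.06 TPM came next without overlap. *Plau* at 2.04 ± 0.630 TPM and *F3* at 0.328 ± 0.108 TPM were the lowest, also without overlap. Among all gene names, 99.0% had a lower WT mean than *Anxa2* and 92.5% a lower one than *Plat*, but 56.3% lay below *Plau* and 45.3% below *F3*. Transcripts of the urokinase receptor were thus at a far higher level than those of urokinase itself. *Plg*, which encodes plasminogen and is known as a gene of the liver, was listed at 0 in 14 libraries and reached 0.125 TPM at most.

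**Figure D1:**
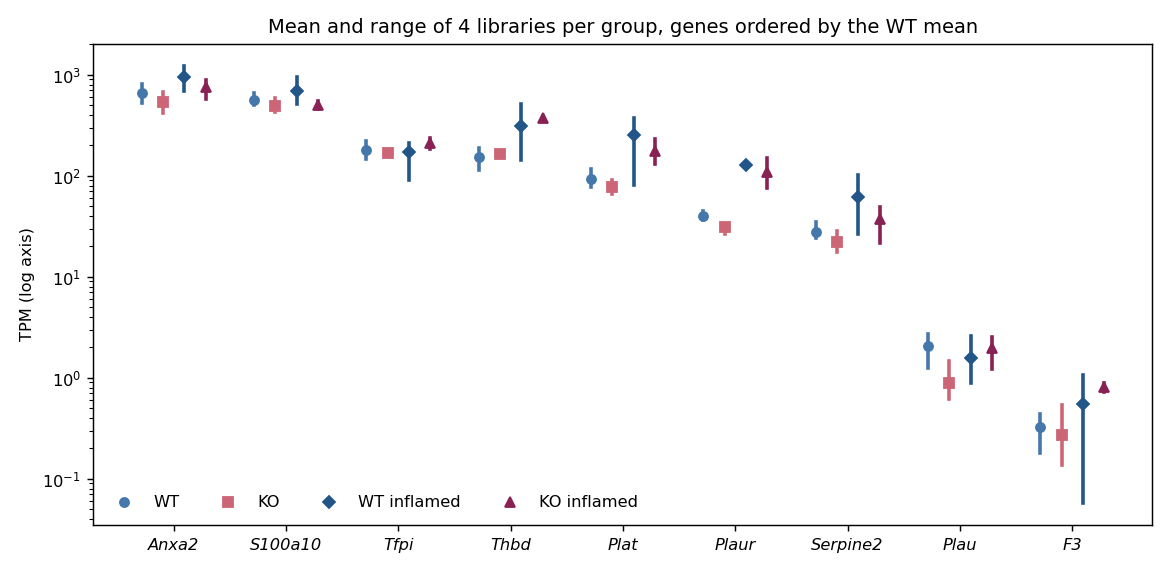
Mean TPM (symbols, log axis) and the range of 4 libraries (lines) of each of the 9 genes in each group, ordered by the WT mean from *Anxa2* at 658 TPM to *F3* at 0.328 TPM. After OVA *Thbd*, at means of 311 and 373 TPM, lay above *Tfpi*, while *Plau* and *F3* stayed below 3 TPM in every library.

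The order changed after OVA. *Thbd* moved from the fourth to the third place in both genotypes, with a mean of 311 ± 151 TPM in WT inflamed and 373 ± 18.5 TPM in KO inflamed LECs, ahead of *Tfpi* at 172 ± 55.2 and 211 ± 22.7 TPM. The ranges of *Thbd* and *Tfpi* did not overlap in KO inflamed LECs, whereas *Plat* lay between them in WT inflamed LECs and its range overlapped both. The places of *Anxa2*, *S100a10*, *Plaur*, *Serpine2*, *Plau* and *F3* were the same in all 4 groups. *Anxa2* and *S100a10* separated only in KO inflamed LECs, where *Anxa2* was at 754 ± 133 TPM and *S100a10* at 501 ± 38.5 TPM.

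*Plaur*, the urokinase receptor, was the member that rose after OVA in both genotypes. The 4 WT libraries were at 40.0, 44.5, 40.1 and 36.6 TPM and the 4 WT inflamed libraries at 130, 133, 128 and 119 TPM. The KO libraries had 26.7, 31.6, 33.0 and 32.0 TPM, and the KO inflamed libraries 99.0, 74.9, 150 and 111 TPM. Every inflamed library lay above every steady state library, and the KO inflamed libraries were the most scattered of the 4 groups. The log2 fold change was 1.64 (SE 0.14, adjusted p = 0.000599, limma) in WT and 1.74 (SE 0.17, adjusted p = 1.9e-05) in KO LECs. In linear terms the mean rose 3.16-fold and 3.52-fold. WT inflamed replicate 2, at 133 TPM, was the highest of its group, and without it the log2 fold change in WT was 1.62.

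At steady state *Plaur* was lower in KO than in WT LECs in every library, at a mean of 30.8 ± 2.8 TPM against 40.3 ± 3.26 TPM. The log2 fold change of -0.38 (SE 0.10) had an adjusted p of 0.111 and did not pass. After OVA the means were 109 ± 31.2 TPM in KO and 128 ± 6.10 TPM in WT LECs, the ranges overlapped, and the log2 difference of -0.27 had an adjusted p of 0.717.

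Sequences from before the transcript start were read for 5 of the 9 members (*Plaur*, *Anxa2*, *F3*, *Serpine2* and *Tfpi*) from RefSeq on GRCm38.p6. The 250 bases before the start are shown for the 3 of them that hold a match to TGANTCA, the core read by AP-1, a factor that many stimuli activate, so that *Plaur*, which rose, can be set beside members that did not pass. The matches are in capitals, both strands were searched, and the sequences are written 5′ to 3′ on the strand of the gene. *Plaur* lies on the plus strand at chr7:24462233-24462482, *Anxa2* on the plus strand at chr9:69453433-69453682 and *F3* on the plus strand at chr3:121723287-121723536.
Plaur: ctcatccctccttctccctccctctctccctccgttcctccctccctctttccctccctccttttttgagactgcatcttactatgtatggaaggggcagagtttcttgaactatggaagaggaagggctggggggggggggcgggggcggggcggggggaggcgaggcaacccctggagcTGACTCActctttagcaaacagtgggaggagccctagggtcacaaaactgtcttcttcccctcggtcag
Anxa2: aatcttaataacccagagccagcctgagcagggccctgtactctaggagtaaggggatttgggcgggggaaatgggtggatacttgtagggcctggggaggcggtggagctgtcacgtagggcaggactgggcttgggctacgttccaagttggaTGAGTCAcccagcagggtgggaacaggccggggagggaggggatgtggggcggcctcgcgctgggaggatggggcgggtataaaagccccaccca
F3: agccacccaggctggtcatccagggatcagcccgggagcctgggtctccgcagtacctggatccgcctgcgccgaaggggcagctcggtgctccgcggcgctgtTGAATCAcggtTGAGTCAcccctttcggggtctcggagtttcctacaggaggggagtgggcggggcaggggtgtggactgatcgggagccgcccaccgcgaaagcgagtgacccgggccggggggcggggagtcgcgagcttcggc

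The match of *Plaur* lay 69 to 63 bases before the start and that of *Anxa2* 95 to 89 bases before it, while *F3* held 2, from 146 to 140 and from 135 to 129 bases before it. For *Plaur* the start used by RefSeq in this table lies inside the full range of the gene. *Serpine2* and *Tfpi*, the latter with a pair of starts, held no match in the same window. Of 32544 distinct mouse sequences of that length, 6.73% held one. A loose NF-kB motif, GGG and CC with 5 free bases between them, was found in 46% of them and in the sequences of *Plaur*, *F3*, *Serpine2* and 1 of the starts of *Tfpi*, but not in that of *Anxa2*. The Sp1 pattern GGGCGG was found in 33% of them and before every start of the 5 genes. These are matches of letters and no measure of binding. *Anxa2* did not pass in any comparison, and *F3* was below the low-value limit. Of 20 immediate early genes, among them those of AP-1, 19 were tested after OVA in each genotype. In WT LECs 0 passed, and in KO LECs *Fosb*, *Ier2* and *Junb* fell and *Klf6* rose. The list stands for tissue digestion as well as for early responses, and *Fos* was high in all groups, at means of 1338 to 2538 TPM. The part of digestion in these levels was not tested, nor was any link to *Plaur*.

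*Plau*, urokinase itself, stayed at a low level in all libraries. At steady state the 4 WT libraries were at 2.27, 1.91, 1.25 and 2.74 TPM and the 4 KO libraries at 1.48, 0.836, 0.617 and 0.655 TPM. The WT inflamed libraries had 2.57, 0.884, 0.889 and 1.99 TPM, and the KO inflamed libraries 2.53, 1.72, 2.5 and 1.21 TPM. The KO group was the lowest, and it overlapped each of the others through replicate 1. KO against WT gave a log2 fold change of -0.68 (SE 0.20, adjusted p = 0.165), the largest difference in size of the 8 members tested there, but it did not pass. KO inflamed against KO gave 0.65 (SE 0.19, adjusted p = 0.0143), under the fold limit, and with a pseudocount of 0.1 TPM in place of 1 TPM it was 1.09 (adjusted p = 0.0168) and passed. In that comparison *Plau* was above the low-value limit only because of the KO inflamed libraries, and in KO against WT because of the WT libraries, so its differences there are bound up with the limit. In WT LECs the change after OVA was -0.27 (adjusted p = 0.764). *Plau* lies 10.3 Mb from *Stab1* on chromosome 14, and the rest of the members lie on other chromosomes.

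*Plat*, the tissue-type activator, lay above the steady state libraries of its genotype in every inflamed library but WT inflamed replicate 2. WT libraries were at 77.0, 117, 87.9 and 93.9 TPM and WT inflamed libraries at 377, 81.6, 343 and 209 TPM. The KO libraries had 65.9, 91.2, 77.8 and 74.9 TPM, and the KO inflamed libraries 161, 175, 234 and 130 TPM. The KO groups did not overlap, whereas WT inflamed replicate 2 lay within the range of the WT libraries and the other 3 lay well above it. In KO LECs *Plat* rose, with a log2 fold change of 1.14 (SE 0.16, adjusted p = 0.000148). Without KO inflamed replicate 3, its highest library, the value was 0.99, just under the fold limit, and after rescaling of all libraries by their median ratio it was 0.89 (adjusted p = 0.00152), also under it. In WT LECs the log2 fold change was 1.21 (SE 0.43, adjusted p = 0.168) with all libraries, which did not pass, and 1.68 (adjusted p = 0.000142) without WT inflamed replicate 2, which did. After rescaling it was 1.25 (adjusted p = 0.0277) in WT and also passed. The test called no difference between KO and WT LECs at steady state, with a log2 difference of -0.27 (95% interval -0.56 to 0.02), or after OVA, with -0.34 (95% interval -1.35 to 0.67). Without WT inflamed replicate 2 the difference after OVA was -0.81 (SE 0.23, adjusted p = 0.193), which did not pass.

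*Serpine2*, protease nexin-1, was like *Plat* low in WT inflamed replicate 2. WT libraries were at 25.7, 35.2, 25.7 and 24.2 TPM and WT inflamed libraries at 101, 26.6, 72.7 and 48.0 TPM. The KO libraries had 20.9, 28.6, 20.4 and 17.5 TPM, and the KO inflamed libraries 39.8, 49.5, 36.9 and 21.8 TPM. In WT inflamed LECs the libraries fell in the same order for both genes, with replicate 1 the highest and replicate 2 the lowest, but in the other groups the order differed. The summed markers of stroma and pericytes, cells that also carry these transcripts, were at 881, 451, 321 and 898 TPM in the WT inflamed and at 570, 510, 807 and 445 TPM in the KO inflamed libraries. Their order differed from that of *Plat* and *Serpine2* in WT inflamed LECs. In KO inflamed LECs all were lowest in replicate 4. The sum and *Plat* were highest there in replicate 3, with replicates 1 and 2 in opposite order, and *Serpine2* was highest in replicate 2. The list did not move as 1: *Ccl19* had means of 355 TPM in WT and 184 TPM in KO inflamed LECs, and *Dcn* 121 and 328 TPM. The part of these cells was not tested. *Serpine2* did not pass in any comparison with all libraries. Its log2 fold change after OVA was 0.99 (SE 0.37, adjusted p = 0.188) in WT and 0.70 (SE 0.22, adjusted p = 0.0201) in KO LECs, the latter under the fold limit. In WT the value passed without WT inflamed replicate 2, at 1.34 (adjusted p = 0.00113), and after rescaling, at 1.03 (adjusted p = 0.0347). In KO LECs rescaling left 0.45 (adjusted p = 0.102, limma). Its differences between genotypes were -0.33 (adjusted p = 0.467) at steady state and -0.63 (adjusted p = 0.717) after OVA. Without WT inflamed replicate 2 the difference after OVA was -0.97 (adjusted p = 0.219).

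**Figure D2:**
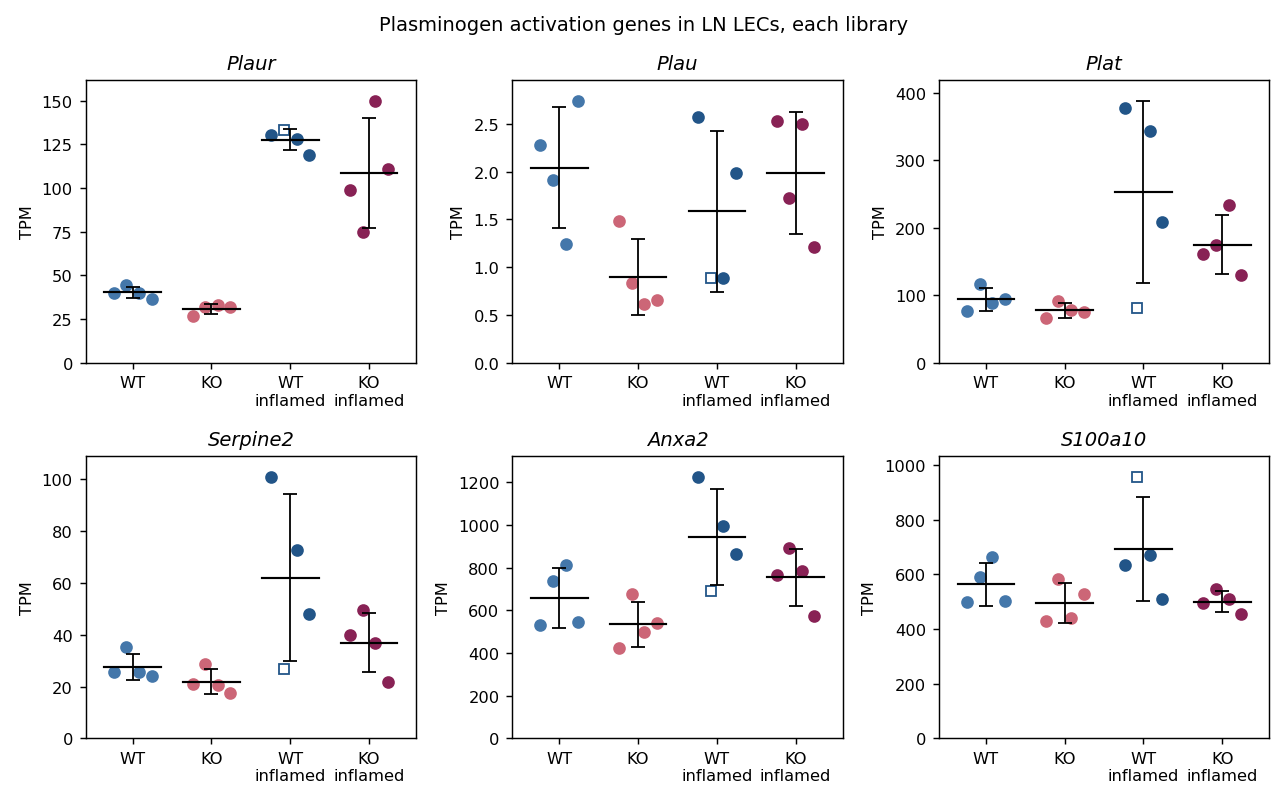
TPM of each library (points, 4 per group) of the 6 plasminogen genes, with the mean (line) and SD (bar); the open square is WT inflamed replicate 2. *Plaur* separates inflamed from steady state libraries in both genotypes, and the open square lies at the WT level for *Plat* and *Serpine2*, at 81.6 and 26.6 TPM.

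*Anxa2* and *S100a10*, the partners in the plasminogen-binding complex, were high in every library and did not pass in any comparison. *Anxa2* had 532, 739, 814 and 547 TPM in the WT libraries and 421, 676, 499 and 542 TPM in the KO libraries. After OVA it had 1226, 690, 994 and 862 TPM in WT and 768, 892, 785 and 572 TPM in KO LECs. The groups overlapped in each comparison. The log2 fold change after OVA was 0.51 (SE 0.21, adjusted p = 0.251, limma) in WT LECs. In KO LECs it was 0.50 (SE 0.15, adjusted p = 0.017), past the adjusted p but under the fold limit. Without WT inflamed replicate 2 the value in WT LECs was 0.65 (adjusted p = 0.0107), also under the fold limit only. After median ratio rescaling the values were 0.55 (adjusted p = 0.244) in WT and 0.24 (adjusted p = 0.234) in KO LECs.

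*S100a10* had 499, 589, 662 and 503 TPM in the WT libraries and 429, 584, 440 and 527 TPM in the KO libraries. After OVA it had 633, 957, 670 and 511 TPM in WT and 494, 547, 509 and 453 TPM in KO LECs. Here the library of 957 TPM was WT inflamed replicate 2, which was the lowest of its group for *Anxa2*. The log2 fold change after OVA was 0.27 (95% interval -0.18 to 0.72) in WT and 0.03 (95% interval -0.20 to 0.25) in KO LECs. KO inflamed LECs were lower than WT inflamed LECs by 0.43 on the log2 scale, with an unadjusted p of 0.047 and an adjusted p of 0.717 (limma). Without WT inflamed replicate 2 this difference was -0.27 (adjusted p = 0.361).

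The transcripts of both partners were compared as the ratio of *S100a10* to *Anxa2* in each library, which does not measure the proteins in the complex. It had a mean of 0.867 ± 0.0723 in WT, 0.934 ± 0.0733 in KO, 0.792 ± 0.402 in WT inflamed and 0.674 ± 0.0806 in KO inflamed LECs (SD, n = 4). All 4 KO inflamed libraries, from 0.613 to 0.793, lay below all 4 KO libraries, from 0.864 to 1.02. On the log2(TPM + 1) scale, on which all ratios were tested, the difference was -0.47, with p = 0.0286 in a two-sided exact permutation test, the smallest that 4 against 4 allow, and an adjusted p of 0.229 over the 16 ratio comparisons made. In WT inflamed LECs the ratio was 0.516, 1.39, 0.674 and 0.592. All but replicate 2 lay below all 4 WT libraries, from 0.797 to 0.939. The log2 difference between WT inflamed and WT was -0.24 with all libraries (exact permutation test, adjusted p = 0.706) and -0.55 without replicate 2.

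The activator and its inhibitor were compared in the same way. *Plat* exceeded *Serpine2* in every library, and the ratio had a mean of 3.41 ± 0.366 in WT, 3.61 ± 0.548 in KO, 3.97 ± 0.723 in WT inflamed and 4.97 ± 1.39 in KO inflamed LECs. The ranges overlapped in all 4 comparisons, and no exact permutation test of this ratio gave an adjusted p under 0.533. WT inflamed replicate 2, so low for both genes, had a ratio of 3.07, the lowest of its group. Replicates 1, 3 and 4 had 3.74, 4.71 and 4.35, and the WT libraries ranged from 2.99 to 3.88.

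*Thbd*, thrombomodulin, rose after OVA in KO LECs with very little spread. The KO libraries had 165, 156, 176 and 161 TPM, and the KO inflamed libraries 360, 356, 395 and 383 TPM. The groups were far apart, and the log2 fold change was 1.18 (SE 0.06, adjusted p = 5.31e-07), a 2.27-fold higher mean. After median ratio rescaling it was 0.92, under the fold limit. WT libraries were at 135, 173, 114 and 189 TPM, and WT inflamed libraries at 291, 143, 510 and 302 TPM. WT inflamed replicate 2 lay among the WT libraries and the other 3 above all of them. In WT LECs the log2 fold change of 0.91 (SE 0.35, adjusted p = 0.201) did not pass with all libraries, and 1.24 (adjusted p = 0.00145) did without WT inflamed replicate 2. Between genotypes the log2 differences were 0.13 (95% interval -0.17 to 0.43) at steady state and 0.40 (95% interval -0.34 to 1.13) after OVA. Without WT inflamed replicate 2 the difference after OVA was 0.07 (adjusted p = 0.953).

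*Tfpi*, the inhibitor of tissue factor, differed little between the groups. At steady state the 4 WT libraries were at 203, 158, 146 and 222 TPM and the 4 KO libraries at 168, 175, 156 and 171 TPM. The WT inflamed libraries had 212, 90.2, 190 and 194 TPM, and the KO inflamed libraries 204, 221, 183 and 236 TPM. The KO and KO inflamed libraries did not overlap, but the difference was small, at 0.33 on the log2 scale (SE 0.08, adjusted p = 0.00548), and did not pass. Median ratio rescaling left 0.07 (adjusted p = 0.527, limma) of it. In WT LECs the value was -0.14 (95% interval -0.77 to 0.49) with all libraries and 0.15 without WT inflamed replicate 2, at 90.2 TPM the lowest of all 16 libraries.

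*F3*, tissue factor, was the lowest of the members in every group and was not tested with the limit on low values. At steady state the 4 WT libraries were at 0.356, 0.180, 0.439 and 0.338 TPM and the 4 KO libraries at 0.138, 0.536, 0.191 and 0.214 TPM. The WT inflamed libraries had 0.922, 0.0576, 0.143 and 1.06 TPM, and the KO inflamed libraries 0.881, 0.741, 0.895 and 0.724 TPM. All KO inflamed libraries lay above all KO libraries. Without the limit the log2 fold change in KO LECs was 0.52 (adjusted p = 0.00402), under the fold limit, on a scale that understates changes at such levels. The ratio of *F3* to *Tfpi* stayed at or below 0.00548 in every library, and that of *F3* to *Thbd* at or below 0.00386. On log2(TPM + 1) the ratio of *F3* to *Thbd* was lower by 0.66 in KO inflamed than in KO LECs (exact permutation test, p = 0.0286, adjusted p = 0.229). The means of the linear ratio were 0.00217 and 0.00167, in the opposite order. The added 1 TPM shrinks the change of *F3* but hardly that of *Thbd*, so the direction of this ratio depended on the scale.

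**Figure D3:**
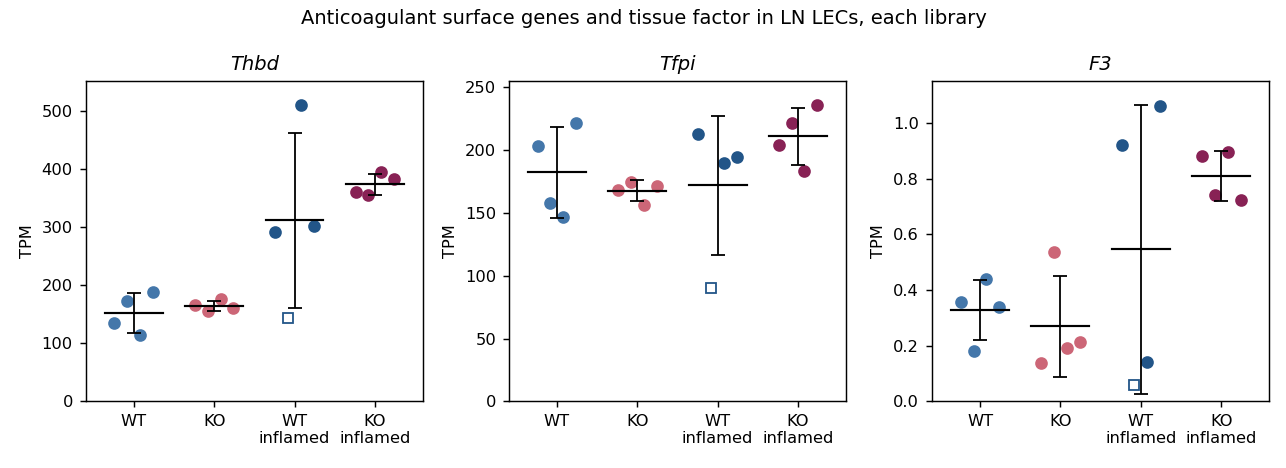
TPM of each library (points, 4 per group) of *Thbd*, *Tfpi* and *F3*, with the mean (line) and SD (bar); the open square is WT inflamed replicate 2. The KO inflamed libraries of *Thbd*, from 356 to 395 TPM, lie above all KO libraries, and *F3* reaches 1.06 TPM at most.

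Set beside all genes, the members were called as follows. KO against WT at steady state called 0 of the 8 members tested in either direction with limma, with 2 members (*Plaur* and *Plau*) at an unadjusted p under 0.05, where 11.7% of all genes were. *Plau* was above the low-value limit there only because of the WT libraries. Of all 12058 genes, 0.431% were called higher and 0.39% lower. The median log2 difference was -0.28 over the 8 members and -0.04 over all genes, and 7 members were below 0, with *Thbd* the exception. *Plaur* was the 1 member whose groups did not overlap, against 6.54% of all genes.

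WT inflamed against WT called 1 of 8 members higher (*Plaur*) and 0 lower, where 1.99% of 12031 genes were higher and 1.97% lower. The median log2 difference was 0.71 over the members and -0.03 over all genes. The groups did not overlap for 1 member, against 14.1% of all genes. Without WT inflamed replicate 2, 4 of 8 members (*Plaur*, *Plat*, *Serpine2* and *Thbd*) were higher against 5.84% of 11936 genes, and the medians were 0.95 and 0.17. That library was the lowest of its group for 7 of the 9 members and the highest for *Plaur* and *S100a10*.

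KO inflamed against KO called 3 of 8 members higher (*Plaur*, *Thbd* and *Plat*) and 0 lower, where 6.41% of 12161 genes were higher and 3.06% lower. A further 4 members (*Serpine2*, *Plau*, *Anxa2* and *Tfpi*) were past the adjusted p but under the fold limit, which made 7 of 8 members higher by the adjusted p alone, as were 43.9% of all genes. Of these 7, *Plau* was above the low-value limit only because of the KO inflamed libraries. The median log2 difference was 0.68 over the members and 0.24 over all genes. The groups did not overlap for 4 members (*Plaur*, *Plat*, *Thbd* and *Tfpi*), a share close to the 54.1% of all genes. When libraries were rescaled by their median ratio, which moved the all-gene median from 0.24 to 0.01, *Plaur* at 1.49 (adjusted p = 0.000153) still passed. *Thbd* at 0.92 (adjusted p = 7.96e-06) and *Plat* at 0.89 (adjusted p = 0.00152) were then under the fold limit. So 1 of 8 members was called beside 3.33% of 12103 genes, and *S100a10* went from 0.03 to -0.23. Of the further 4 members, *Plau* at 0.50 (adjusted p = 0.0487, limma) was still past the adjusted p. *Serpine2* at 0.45 (adjusted p = 0.102), *Anxa2* at 0.24 (adjusted p = 0.234) and *Tfpi* at 0.07 (adjusted p = 0.527) were not. The rescaling turned the split of all calls from 780 higher and 372 lower to 403 higher and 605 lower, and in WT LECs from 239 and 237 to 354 and 220.

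KO inflamed against WT inflamed called 0 of 8 members with limma, with 1 (*S100a10*) at an unadjusted p under 0.05, as were 4.26% of all genes. Of 12030 genes, 0.191% were called higher and 0.125% lower. The median log2 difference was -0.29 over the members and 0.20 over all genes. No member had groups without overlap, against 5.19% of all genes. Rescaling moved the median over all genes to -0.01 and that over the members to -0.53, and no member passed. Without WT inflamed replicate 2 the medians were 0.02 over all genes and -0.26 over the members, *S100a10* was at -0.27, and no member passed.

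Whether OVA acted differently in the genotypes was tested as an interaction over all 16 libraries. It called 0 of 8 members and 0% of 12684 genes, with 1 member (*Plau*) and 542 genes (4.27%) at an unadjusted p under 0.05. The interaction of *Plau* was 0.92 on the log2 scale (SE 0.35, adjusted p = 0.668). For the members that passed in KO LECs, it was 0.10 (95% interval -0.38 to 0.59) for *Plaur*, -0.07 (95% interval -1.13 to 0.99) for *Plat* and 0.26 (95% interval -0.54 to 1.07) for *Thbd*. After median ratio rescaling the same values were -0.19, -0.36 and -0.03, so that the sign turned for *Plaur* and *Thbd*. Without WT inflamed replicate 2 the interaction was 0.13 for *Plaur*, -0.54 for *Plat* and -0.06 for *Thbd*, and no member passed either. The comparisons share groups, since each genotype serves both as a baseline and in the comparison of genotypes, and their values for a gene are not independent of each other.

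**Figure D4:**
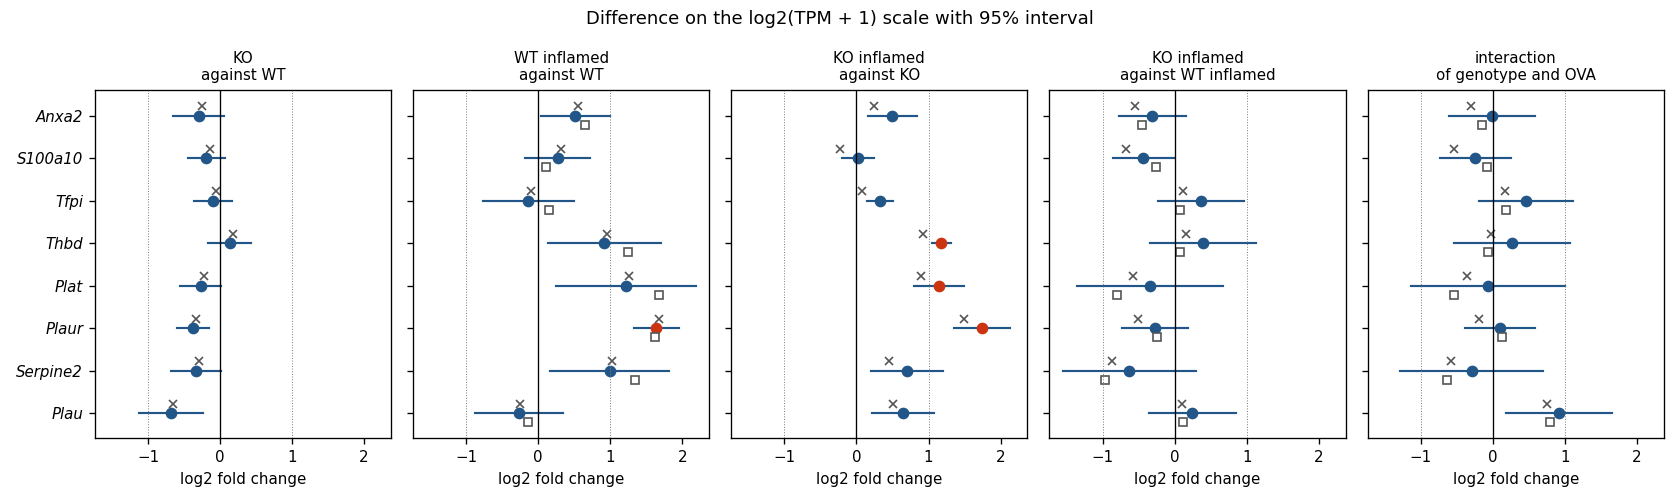
Difference of each tested gene on the log2(TPM + 1) scale (points) with its 95% interval (lines) in the 5 comparisons; red points passed, crosses are values after median ratio rescaling and open squares those without WT inflamed replicate 2. *Plaur* passed in both comparisons with OVA, at 1.64 and 1.74, and *Thbd* and *Plat* in KO LECs, at 1.18 and 1.14, and the crosses of *Thbd* and *Plat* in KO LECs lie at 0.92 and 0.89.

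Other genes of the plasminogen system were mostly too low to test. Of 14 listed, 4 were tested in each comparison. *Vtn*, vitronectin, which binds uPAR, fell in KO LECs from between 16 and 22.7 TPM to between 3.78 and 14.3 TPM (log2 fold change -1.23, SE 0.29, adjusted p = 0.0044). It did not pass without KO inflamed replicate 3 (-0.93) or in 1 fit over all 16 libraries (adjusted p = 0.0902 at the same fold). *Serping1*, the C1 inhibitor, and *Plgrkt*, a plasminogen receptor, were the highest of the list, at group means of 604 to 1176 TPM and of 84.9 to 101 TPM. *Serping1* passed only without WT inflamed replicate 2, in WT LECs after OVA.

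Of 26 other clotting and anticoagulant genes, 25 were in the tables and 12 to 16 were tested. In KO LECs after OVA *F5*, which encodes the cofactor of factor X, and *Tfpi2*, a relative of *Tfpi*, rose, while *F7* and *Vwf* fell, and 10 did not pass. *F7* was under the fold limit without KO replicate 1 (-0.93), KO replicate 3 (-0.97) or KO inflamed replicate 3 (-0.88). *Tfpi2* went from 4.70, 6.12, 4.57 and 3.42 TPM to 12.1, 14.6, 14.7 and 18.4 TPM (log2 fold change 1.49, SE 0.17). In WT LECs *Tfpi2* gave 0.83 (adjusted p = 0.386) with all libraries and 1.23 (adjusted p = 0.0052) without WT inflamed replicate 2, which passed. *F5*, *F7* and *Vwf* were below 4 TPM in every library. *F5* was above the low-value limit only because of the KO inflamed libraries, and *F7* and *Vwf* because of the KO libraries, so their differences are bound up with the limit. In WT LECs *F2*, prothrombin, fell from 13.3, 12.1, 15.6 and 12.4 TPM to 4.83, 4.48, 6.14 and 6.23 TPM (log2 fold change -1.17, SE 0.20, adjusted p = 0.0119), a call that was lost without WT replicate 1 (-1.17, adjusted p = 0.0596) or WT replicate 3 (-1.10, adjusted p = 0.0556). In KO LECs it went from 17.1, 17.6, 18.3 and 11.9 TPM to 9.94, 8.93, 7.10 and 8.64 TPM, also without overlap. That log2 fold change of -0.83 (adjusted p = 0.000866) was under the fold limit, and after rescaling it was -1.06 (adjusted p = 9.88e-05) and passed. *Procr*, the receptor that presents protein C to thrombin and thrombomodulin, was the highest gene of the list, at group means of 746 to 976 TPM, and did not pass. *Pros1*, protein S, at 119 to 216 TPM, and *F8*, factor VIII, at 112 to 217 TPM, did not pass either. Fibrinogen genes *Fga*, *Fgb* and *Fgg* were listed at 0 in all WT, WT inflamed and KO inflamed libraries.

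Of 4 thrombin receptors, only *F2r* was tested in each pairwise comparison, and it did not pass, at group means of 17.7 to 34.5 TPM. Of 8 genes listed as acting on platelets, in either direction, 5 were tested, and *Thbs1*, thrombospondin-1, rose in KO LECs. Its KO libraries had 61.2, 75.1, 70 and 44.3 TPM and its KO inflamed libraries 290, 332, 382 and 236 TPM (log2 fold change 2.29, SE 0.18). In WT inflamed LECs it had 384, 47.6, 324 and 258 TPM, and it passed in WT only without replicate 2.

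Of 12 genes listed as linked to plasmin at the cell surface, not all of them partners of the annexin complex or of uPAR, 10 or 11 were tested. *S100a11*, the partner of annexin A1, rose after OVA by 1.3 on the log2 scale (SE 0.22) in WT and by 1.03 (SE 0.07) in KO LECs, but passed in neither after rescaling, with 1.34 (adjusted p = 0.0997) in WT and 0.77 (adjusted p = 0.000159) in KO LECs, nor in KO LECs without KO replicate 1 (0.99) or KO inflamed replicate 3 (0.98). *Itgb1*, the beta-1 integrin chain, rose in KO LECs by 1.13 (SE 0.06), and by 0.87 after rescaling, which did not pass, nor did it in 1 fit over all 16 libraries (adjusted p = 0.0549). *Ahnak*, a scaffold bound by annexin A2 and S100A10, fell in KO LECs from 84.3, 78.7, 83.7 and 83.3 TPM to 38.2, 43.9, 28.5 and 32.3 TPM (log2 fold change -1.20, SE 0.12). In WT LECs it went from 64.7, 79.6, 92.9 and 74.9 TPM to 40.8, 44.8, 39.0 and 37.6 TPM, also without overlap. That log2 fold change of -0.92 (adjusted p = 0.0129) was under the fold limit, and after rescaling without WT inflamed replicate 2 it was -1.15 (adjusted p = 0.000194) and passed. *S100a6* fell in KO LECs by 1.06 on the log2 scale. Without KO replicate 2 (-0.93), KO replicate 4 (-0.96) or KO inflamed replicate 4 (-0.98) *S100a6* was under the fold limit. KO inflamed against WT inflamed LECs gave -1.21 (adjusted p = 0.173) for *S100a6* with all libraries, which did not pass, and -1.01 (adjusted p = 0.018) without WT inflamed replicate 2, which did, as it did in 1 fit over 16 libraries (adjusted p = 0.0173).

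**Figure D5:**
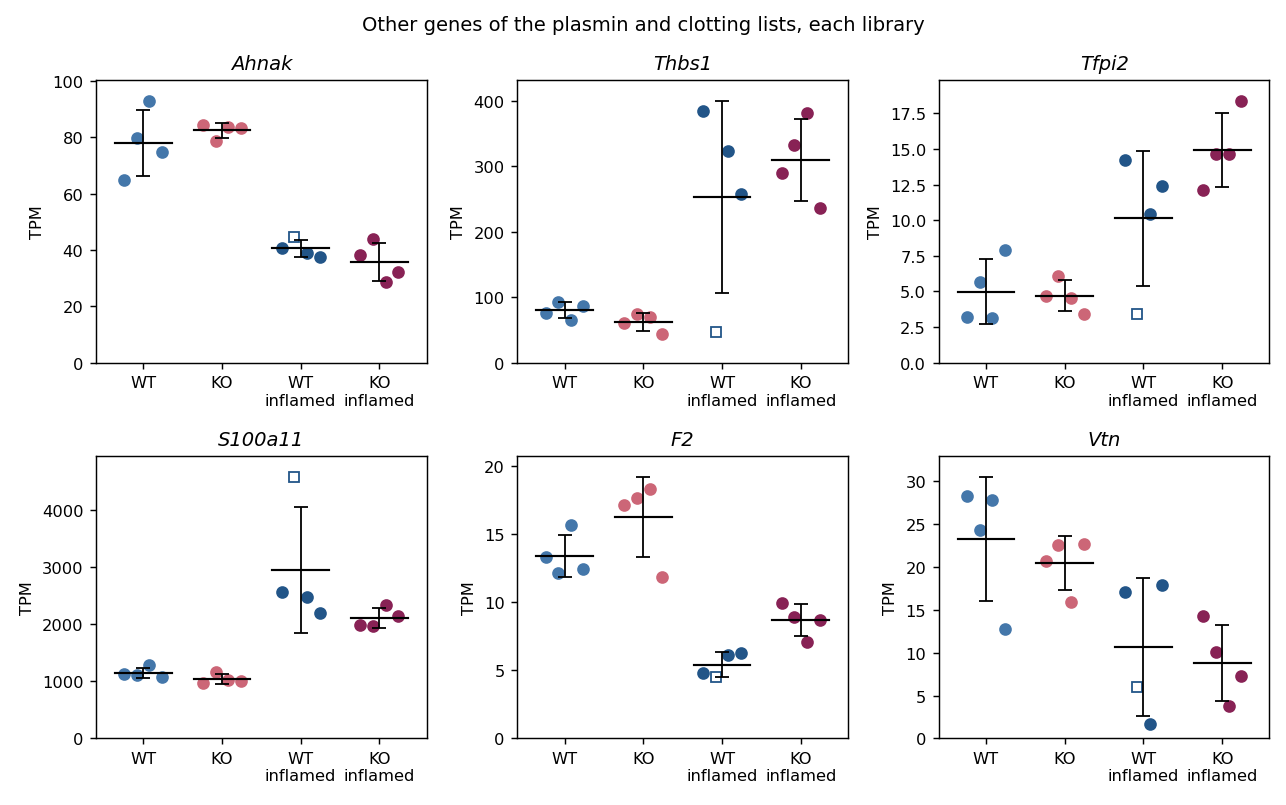
TPM of each library (points, 4 per group) of 6 genes outside the 9 members, with the mean (line) and SD (bar); the open square is WT inflamed replicate 2. In that library *Thbs1*, at 47.6 TPM, lies below the WT libraries and *Tfpi2*, at 3.43 TPM, among them, and *S100a11* is at its highest there.

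The genes whose levels ran most like those of the 3 members that passed were found by Pearson's r of log2(TPM + 1) over the 16 libraries, among genes with a mean of at least 5 TPM. For *Plaur* they were *Pdlim1* (r = 0.985), *Ranbp1* (r = 0.976) and *St3gal1* (r = 0.968), none of which was low in WT inflamed replicate 2. For *Plat* they were *Nsg1* (r = 0.949), *Ece1* (r = 0.948) and *Slco3a1* (r = 0.946). For *Thbd* they were *Tmem2* (r = 0.969), *Lamc1* (r = 0.965) and *Nid1* (r = 0.965), and all 6 neighbours of *Plat* and *Thbd* had their lowest inflamed level in that library. The points share the 4 groups, so these values mostly describe the step after OVA.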

How the data were processed

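RNA of sorted LN LECs from 16 libraries, 4 per group, was used. The authors aligned reads to mm10 and deposited gene levels as TPM. The methods of the study name STAR and salmon for this, and the labels STAR 2.5.2b, Subread and limma. The kit does not mark strand. The 3 TPM tables repeat 8 libraries with 0 differing values. In each, 26 gene names turned into dates were dropped, which left 24946. Depth is unknown. The authors' tables of changed genes (fold changes and p-values) were not used.

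R 4.3.3 with limma 3.58.1 (eBayes with a mean-variance trend) was run on log2(TPM + 1) of the genes that reached 1 TPM in 4 libraries of a comparison. Benjamini-Hochberg adjustment covered all of these genes, the limit was 0.05, and the fold limit was 1 on the log2 scale. A count model, as the study used, does not suit TPM. For ratios within a library, exact permutation tests (two-sided, smallest p 0.0286) were used, adjusted over 16. The limma step was tested on simulated data. Since each library pools mice and nothing else is stated of its origin, p-values measure the spread between these libraries.

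All 9 members were named. Of other lists, genes that passed were named (up to 6 a list), or else up to 3 of the highest mean, as were the 3 genes most like each member that passed. *Plg*, *Serping1*, *Plgrkt*, *Procr*, *Pros1*, *F8* and the fibrinogen genes were also named after their values were seen. Of the list of other plasminogen genes, 1 gene is not reported here. The members and lists were chosen with earlier results of these data known. The settings varied were the pseudocount (0.1 and 5 TPM), the filter (none, or 5 TPM), median ratio rescaling, a replicate block, the fold limit, the libraries fitted (16 in 1 fit) and leaving out each library. Promoter and gene positions came from RefSeq (GRCm38.p6), read with Python 3.11.15. Figures were drawn with matplotlib 3.10.9.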

Additional observations from a re-analysis of the deposited data

Results flagged for a closer look

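Among 36 groups of 4 libraries looked at, 4 for each of the 9 genes, 1 library lay far from the rest of its group. *Serpine2* had 35.2 TPM in WT replicate 2, while the other 3 WT libraries had 24.2 to 25.7 TPM (ratio of gap to range 0.863). Chance alone sets off about 1 in 20 such groups. Leaving that library out changed no call of *Serpine2*.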

How the results depend on the processing

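The number of members called higher changed in both comparisons with OVA and in none of the others. In WT LECs it was 1 with all libraries, where 1.99% of all genes were higher, and 3 after median ratio rescaling, where 2.94% were. It was 4 after rescaling without WT inflamed replicate 2, where 3.87% of all genes were higher. It was 2 in 1 fit over 16 libraries, a setting for which the share of all genes is not given here. When libraries were left out singly it was 1 to 4, with 4 only without WT inflamed replicate 2, and 109 to 697 of all genes were higher. In KO LECs it was 3, where 6.41% of all genes were higher, but 1 after rescaling, where 3.33% were. It was 4 with a pseudocount of 0.1 TPM, for which the share of all genes is not given here. Without a fold limit it was 7, where 43.9% of all genes were higher. It was 2 to 3 when libraries were left out singly, with 684 to 900 of all genes higher. *Plau*, whose difference is bound up with the low-value limit, is among the 4 and the 7. The members called lower stayed at 0 in all comparisons and settings. Of 715 member values under alternatives, 698 kept their call, 14 gained and 3 lost it, and 0 called values changed sign. The causes were not tested.

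Replicate numbers do not pair the samples: 1 of 24 pairs of libraries with the same number had deviations correlated above 0.1 (r from -0.13 to 0.18). With a replicate block no member count changed (0, 1, 3, 0 and 0 called higher), *F2* in WT LECs lost its call (-1.17, adjusted p = 0.0743), and all genes in WT LECs after OVA went from 239 higher and 237 lower to 131 and 134, and those higher in KO inflamed against WT inflamed LECs from 23 to 10.

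Counts over all genes moved more. With a pseudocount of 5 TPM they were 24 and 21 in KO against WT (52 and 47 with 1 TPM), 133 and 129 in WT and 347 and 192 in KO LECs after OVA, and *F2* in WT and *F5*, *F7*, *S100a6*, *Vtn* and *Vwf* in KO LECs were under the fold limit. In WT LECs after OVA 697 genes were higher without WT inflamed replicate 2 and 98 to 134 passed per direction when a WT library was left out. In KO inflamed against WT inflamed LECs, 40 and 38 passed without that library and 2 to 3 higher without a KO inflamed one. TPM give no depth, so members near 1 TPM (*Plau* and *F3*) carry an error that cannot be set.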
